A study of Mus musculus with 18 samples.

Results

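The comparison described here is that of the hypothalamus of mice lacking T1R3 with the hypothalamus of wild-type mice, on 3 arrays of each genotype. A probe was included when its signal was detected above the array's negative controls (detection p under 0.05) on 3 or more of the 6 hypothalamus arrays. That rule kept 14718 of the 25697 probes, of which 13847 carried a gene symbol, for 10002 genes. The probes just inside the rule, 365 detected on exactly 3 arrays, had a median signal of 147, and the 399 just outside it, detected on 2 arrays, one of 141.

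The knockout group was Hypothalamus_T1R3KO and the control group Hypothalamus_WT. All animals were male, 4 to 5 months old and of C57BL/6J background, and they ate standard chow freely. The T1R3 knockout line had been crossed with C57BL/6J mice for at least 4 generations, and no source used here says whether the wild-type animals were littermates. The deletion was in the germ line and so was carried by every cell of the animal. Cortex and hippocampus were measured in the same way. With 18 arrays from 18 mice, 3 per genotype and region, each array is a separate animal.

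T1R3, encoded by Tas1r3, is the subunit shared by the sweet receptor (with T1R2) and the umami receptor (with T1R1), class C G protein-coupled receptors known from taste cells of the tongue and also from gut and brain. The hypothalamus senses nutrients and hormones, sets feeding and body temperature, and drives the pituitary through releasing hormones and dopamine. It lies directly above the pituitary stalk, and its lower surface is covered by the pia, the innermost of the meninges.

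Across the 6 hypothalamus arrays the mean signal ran from 967.5 to 1388 and the share of probes detected from 55.8% to 58.1%. Levels below are log2 signals after background correction and quantile normalization over all 18 arrays. A change is the mean of the 3 knockout arrays minus that of the 3 wild-type arrays on that scale, ± its standard error, and precision is limited by the number of arrays. A probe is called changed when limma's moderated test, fitted over all 18 arrays, gave a Benjamini-Hochberg adjusted p under 0.05. The standard error is that of the same fit, in which all 6 groups of the 3 regions share the spread. Neither it nor the p-value measures the spread of the 6 hypothalamus arrays alone. Of 28 measured genes that mark the hypothalamus, 24 were higher in the wild-type hypothalamus than in the mean of the wild-type cortex and hippocampus, against 28.3% of all genes. Levels of the 5 highest of them, Pmch, Ndn, Sparc, Hap1 and Resp18, differed between the genotypes by -0.08 to 0.04. Transcripts from the Y chromosome (Uty, Kdm5d, Eif2s3y) had a detected signal on all 6 arrays, as labelled for males.

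The targeted gene could not check the labels. Its probe was detected on 0 of the 6 arrays. The deposited Tas1r3 signals were 163.9, 123.7 and 123.6 in the knockout and 117, 134.9 and 112.8 in the wild type, or 137 ± 23.2 against 122 ± 11.7 (SD, n = 3). These values overlapped. Neither the sequence of the probe nor its place with respect to the deletion was used here.

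In the knockout hypothalamus 244 of the 14718 probes were called, 103 higher and 141 lower. Over the 15476 probes tested, the called share was 1.6%, and among those of the hypothalamus it was 1.66%, with 0.7% higher and 0.958% lower. The largest falls were in Prl, the pituitary hormone prolactin, in Fcer1g, the signalling gamma chain of Fc receptors, and in Gramd4, a GRAM-domain protein. The largest rises were in H2-Bl, a class I-like gene of the major histocompatibility complex, in Fn3krp, a kinase of sugar-modified proteins, and in Bricd5, a BRICHOS-domain protein. The median size of a called change was 0.844 on the log2 scale, and the smallest was 0.305. A change above 1 was called at 33 probes and one below -1 at 52.

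The 6 arrays separated by genotype. On the first principal component, which held 43.7% of the variance, knockout arrays lay between -22.6 and -10.1 and wild-type arrays between 15 and 15.7. The knockout and wild-type levels did not overlap at any of the 244 called probes, while they did not overlap at 19.1% of all 14718. Called probes were chosen by the difference on these same arrays, so their lack of overlap largely follows from the choice. The median change of all 10002 genes was 0.02 on the log2 scale, and 54.3% of them were above 0. An unadjusted p under 0.05 was found at 1542 of the 14718 probes, the background for such counts in the lists below. At 20 called probes no knockout array, and at 13 no wild-type array, had a detected signal. With 1 probe per gene, 183 of 10002 genes were called (1.83%), 76 higher (0.76%) and 107 lower (1.07%), the background for the lists that follow. Of 20 genes of taste receptors and taste signalling 4 were measured, and 1, Gnb1, a G protein beta subunit used in many tissues, rose. For probes without a detected signal in a genotype a fold is given as a lower bound, against the lowest detected signal of the arrays in question.

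**Figure D1:**
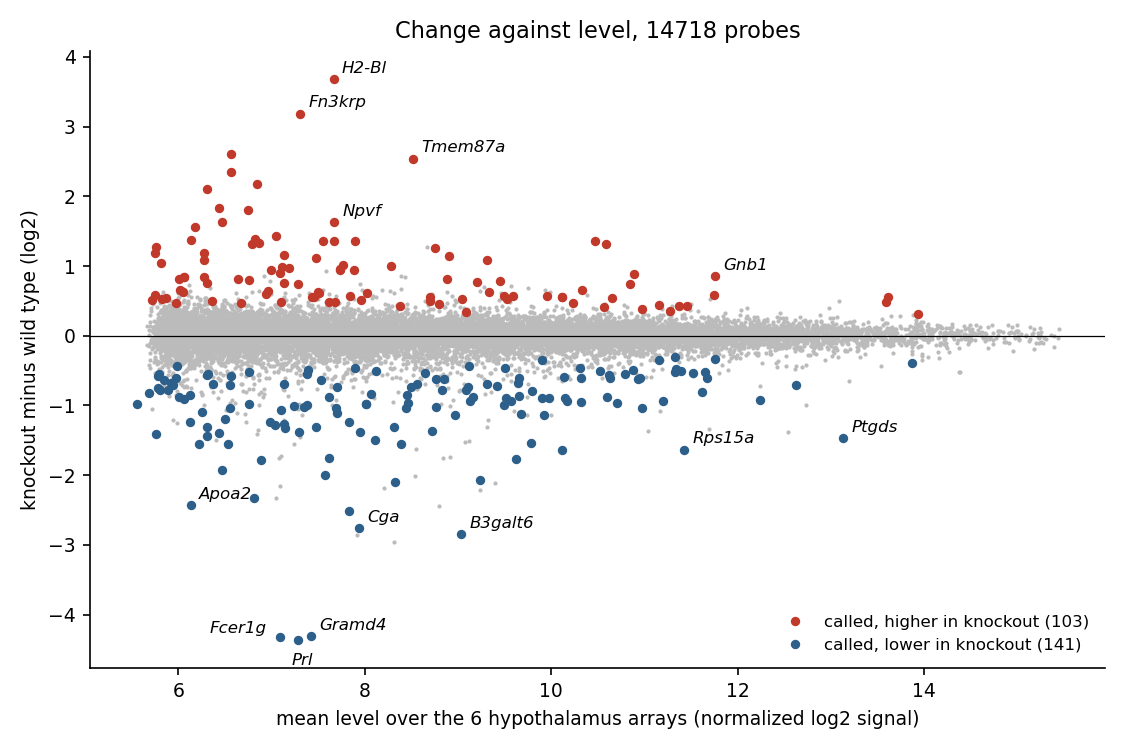
Change in the knockout hypothalamus (log2, vertical axis) against the mean level over the 6 arrays (normalized log2 signal, horizontal axis) for 14718 probes. Each point is a probe: grey points were not called, red points were called higher (103) and blue points called lower (141). Prl, Fcer1g and Gramd4 stand apart below -4, and H2-Bl and Fn3krp above 3.

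Prl showed the largest fall, and Cga, another gene of a pituitary hormone, also fell. Prl levels in the knockout were 5.22, 5.21 and 4.86, with no array detected, against 9.18, 10.71 and 8.49 in the wild type. The change was -4.36 ± 0.37, at least 12.1-fold lower (adjusted p = 2.88e-06). Every wild-type array was high and every knockout array at the background. Cga, the alpha subunit shared by thyrotropin and the gonadotropins, was at 6.68, 8.22 and 4.78 in the knockout and at 8.75, 10.46 and 8.75 in the wild type. That fall was -2.76 ± 0.58 (adjusted p = 0.0216), and knockout array 3 was the lowest. The call of Cga was lost without knockout array 1, knockout array 3 or wild-type array 2, with an adjusted p of up to 0.124, while that of Prl held whichever array was left out. With the 6 hypothalamus arrays fitted alone, Prl was called and Cga was not.

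Both hormones belong to a list of 19 genes that mark the pituitary, a gland next to the dissected tissue. Of the 8 measured, 0 rose and 2, Prl and Cga, fell, with a median change of -0.22. The mean level of the list was 8.19, 8.76 and 7.84 in the knockout and 9.22, 9.64 and 9.03 in the wild type. Of its 8 members 3 were above 0 and 5 below 0. Prl, Cga and Tshb had the largest changes, and those of the other 5 members, Pomc, Lhx3, Gata2, Chgb and Dlk1, ran from -0.29 to 0.40.

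Further pituitary hormones differed from animal to animal. Tshb, the beta subunit of thyrotropin, was at 5.96, 8.64 and 4.96 in the knockout and at 7.70, 8.37 and 7.15 in the wild type, and it was not called (-1.22 ± 0.59, adjusted p = 0.488). Gh, growth hormone, was detected on 2 of the 6 arrays and so fell outside the probe rule. Its deposited signals were 160.9, 127.6 and 87.7 in the knockout and 2192, 130.8 and 1113 in the wild type. Only wild-type arrays 1 and 3 carried a detected Gh signal, while the highest Prl and Cga levels were on wild-type array 2. Fshb and Lhb, the gonadotropin beta subunits, had deposited signals of 335 and 187.1 on wild-type array 2 and at most 111.5 and 106.8 on any other. Tshb, Gh, Fshb and Lhb were chosen for mention after their values were seen. In bulk tissue, fewer cells of a type and less RNA per cell cannot be told apart, and the part of pituitary tissue in the falls of Prl and Cga was not tested.

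The stretches of 250 bases before the start sites of these pituitary genes are shown because Prl and Cga fell together. They are from RefSeq (GRCm38.p6), read on the plus strand, at chr13:27057320-27057569 for Prl and chr4:34893529-34893778 for Cga. Capitals mark each match, on either strand, to the letters ATGNATA, the core bound by the pituitary factor Pit-1, and TATAAA, the core of the TATA box.
Prl: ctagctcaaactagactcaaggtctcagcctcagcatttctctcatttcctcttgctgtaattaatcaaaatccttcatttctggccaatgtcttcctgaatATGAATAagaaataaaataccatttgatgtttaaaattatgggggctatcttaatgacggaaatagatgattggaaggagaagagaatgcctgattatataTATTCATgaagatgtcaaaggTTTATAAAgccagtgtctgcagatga
Cga: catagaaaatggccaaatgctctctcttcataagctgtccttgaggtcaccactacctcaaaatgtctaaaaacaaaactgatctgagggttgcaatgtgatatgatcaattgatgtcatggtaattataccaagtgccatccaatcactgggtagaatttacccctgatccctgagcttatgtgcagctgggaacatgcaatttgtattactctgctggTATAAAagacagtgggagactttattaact
Prl held ATGNATA at 2 places, once on each strand, and TATAAA on both strands in overlapping letters. Cga held TATAAA once and ATGNATA at 0 places. Of all 32851 stretches of this length before RefSeq start sites, 12.4% held TATAAA and 7.92% held ATGNATA.

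The mean level of genes of the meninges and of fibroblast matrix was lower on every knockout array than on any wild-type array. Means that did not overlap were found for many other lists too. Feeding peptides, hypothalamic transcription factors, potassium channels and striatal genes were among them. Of 24 such genes 15 were measured, all 15 were below 0, and 5 were called lower and 0 higher, with a median change of -1.38. Those 5 were Lum and Ogn, leucine-rich proteoglycans of collagen fibres, Aebp1, a matrix protein, Nupr1, a stress-induced chromatin protein, and Ptgds, the prostaglandin D2 synthase that is abundant in the leptomeninges. The mean level of the list was 8.24, 8.13 and 8.26 in the knockout and 8.78, 9.54 and 10.32 in the wild type. The knockout arrays were close together, while the wild-type arrays were spread widely, with array 3 the highest.

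Ogn showed that spread in a single gene. Its levels were 7.45, 6.91 and 7.45 in the knockout and 7.99, 9.46 and 10.66 in the wild type, a change of -2.10 ± 0.43 (adjusted p = 0.0166). Wild-type array 1 lay nearer to the knockout arrays than to wild-type array 3. The SD of Ogn was 0.31 in the knockout and 1.34 in the wild type (n = 3). The standard error, shared over the groups of 3 regions, does not reflect that wild-type spread alone. Ptgds, at 12.73, 12.11 and 12.34 against 12.90, 14.01 and 14.67, changed by -1.47 ± 0.30 (adjusted p = 0.0166). Nupr1 was at 7.48, 7.54 and 7.82 in the knockout and at 8.47, 9.12 and 9.92 in the wild type (-1.56 ± 0.26, adjusted p = 0.00286). Both genes had the same order of wild-type arrays as Ogn. Aebp1 was at 7.19, 7.0 and 7.59 against 7.81, 8.83 and 9.29 (-1.38 ± 0.29, adjusted p = 0.0225). With single arrays left out the calls of Ogn (without knockout array 2 or wild-type array 2), Ptgds (knockout 2 or 3, wild type 2 or 3) and Aebp1 (knockout 1 or 2, wild type 2 or 3) were lost, at adjusted p-values of up to 0.0792, 0.0805 and 0.12.

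Lum did not share the wide spread. It was at 5.43, 5.85 and 5.50 in the knockout, detected on 1 array, and at 6.86, 6.91 and 7.31 in the wild type, a change of -1.43 ± 0.18 (adjusted p = 0.000257). Its 3 wild-type animals lay close together, and the call held under the 19 alternatives that could test it.

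Several of the largest falls outside the list had the same array pattern. Foxc2, a forkhead factor of mesenchyme and vessels, was detected on 0 knockout arrays and was at 6.29, 7.52 and 8.49 in the wild type. By the mean of those wild-type arrays it was at least 2.96-fold lower in the knockout (adjusted p = 0.0158). Itih2, a heavy chain that binds hyaluronan, was at 6.85, 6.65 and 6.21 against 7.24, 8.72 and 9.75 (-2.0 ± 0.43, adjusted p = 0.0241). Neither gene is a member of the meningeal list. Mgp, the calcification inhibitor matrix Gla protein, was at 9.0, 9.31 and 9.56 against 10.20, 10.63 and 11.98 (-1.65 ± 0.33, adjusted p = 0.0164). Fam180a was at 6.13, 5.93 and 5.94 against 6.82, 7.83 and 8.68 (-1.78 ± 0.39, adjusted p = 0.0273). In each of these 4 genes wild-type array 3 was the highest and wild-type array 1 the lowest of the wild-type arrays. Leaving out 1 array ended each call at least once, at adjusted p-values of up to 0.0709 for Foxc2 (without knockout 2, wild type 2 or 3), 0.124 for Itih2 (any but wild type 1), 0.0796 for Mgp (knockout 1 or 2) and 0.142 for Fam180a (any but wild type 1). None of these 4 genes was called when the 6 hypothalamus arrays were fitted alone.

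The count of meningeal genes called depended on the processing and on which arrays were used. In place of 5, it was 10 with no background correction and with scaling to a common median, 9 with an offset of 50, 8 with the deposited z scores, with robust variances and with the replicate block over 18 arrays, and 14 with array weights. It was 1 with the 6 hypothalamus arrays fitted alone, with or without that block. With wild-type array 1 as the only wild-type array, a setting added after the data were seen, 1 of the 15 was called. Leaving out single arrays gave 13 called without wild-type array 1, 2 without wild-type array 2, 3 without wild-type array 3, and 3 or 4 without a knockout array. In cortex and hippocampus the changes of Ogn were 0.22 and 0.58, those of Ptgds 0.14 and -0.06, and those of Nupr1 -0.07 and -0.16, with no call. The part of meningeal tissue carried along in dissection in these falls was not tested.

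**Figure D2:**
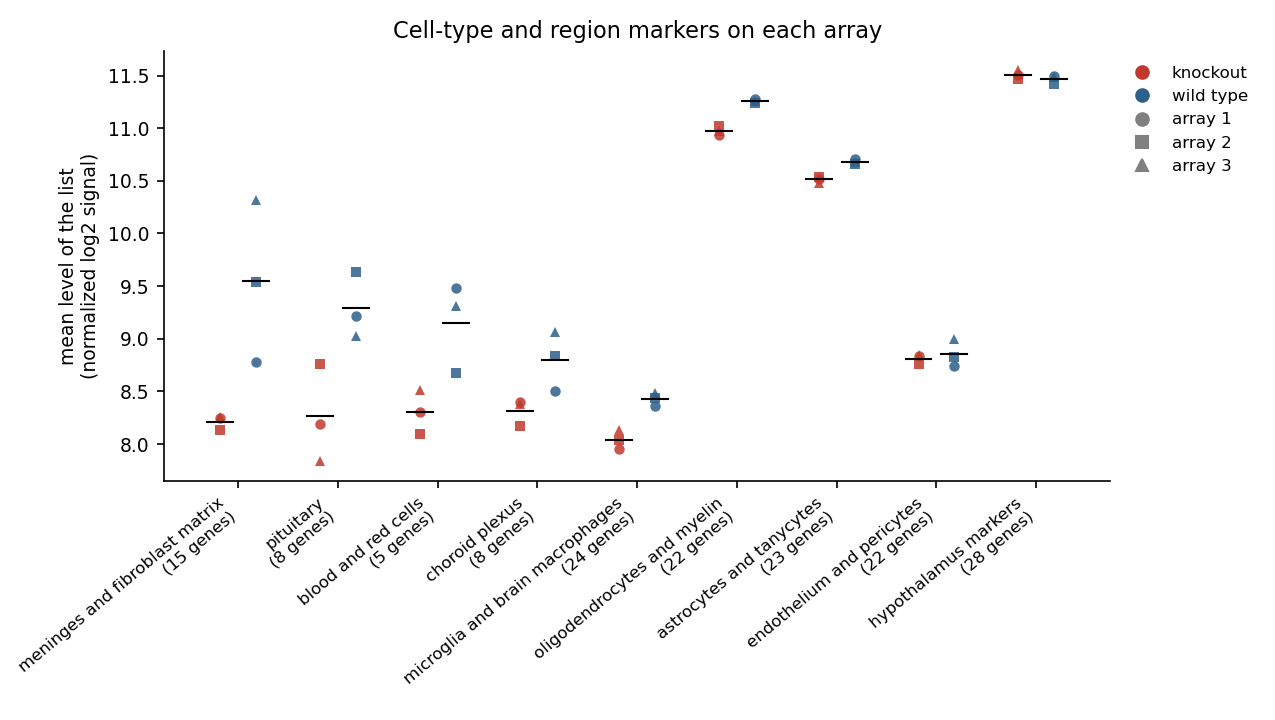
Mean level (normalized log2 signal) of 9 marker lists on each of the 6 hypothalamus arrays. Red symbols are knockout and blue symbols wild-type arrays, symbol shapes give the replicate number, and black bars the mean of 3 arrays. The meningeal list spreads from 8.78 to 10.32 in the wild type and lies between 8.13 and 8.26 in the knockout, while the hypothalamus markers lie between 11.42 and 11.55 on all arrays.

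Of the 24 microglia and macrophage genes measured, 2 were called, both lower. In all 4 were above 0 and 20 below 0, 10 had an unadjusted p under 0.05, and the median change was -0.26. Mrc1, the mannose receptor that marks the macrophages of the brain's borders and vessels, was at 6.13, 5.96 and 6.00 in the knockout and at 7.02, 6.90 and 7.30 in the wild type (-1.04 ± 0.14, adjusted p = 0.000406). Lyz2, the macrophage lysozyme, was at 6.86, 7.06 and 7.52 against 7.96, 8.11 and 8.68 (-1.10 ± 0.23, adjusted p = 0.0197), and its other probe also fell. Lyz2 lost its call without knockout array 1 or 2 or wild-type array 3 (adjusted p up to 0.115). It was also not called with the 6 hypothalamus arrays fitted alone. The list's mean level was 7.95 to 8.13 in the knockout and 8.36 to 8.48 in the wild type. The number called was 8 with array weights, 6 with the replicate block over 18 arrays and 1 with wild-type array 1 alone.

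The lists of further cell types had at most 1 called gene each. Of 22 oligodendrocyte and myelin genes 20 were below 0, with a median of -0.24 and 0 called by limma, while 9 had an unadjusted p under 0.05 and 5 were called with array weights. Their mean level was 10.94 to 11.02 in the knockout and 11.24 to 11.28 in the wild type. For 5 red cell and blood genes the median was -0.79 with 0 called, 4 of them with an unadjusted p under 0.05. Hbb-bt, a beta globin, was the closest to a call (-1.14 ± 0.29, adjusted p = 0.0678). Hbb-b2, another beta globin of that list, fell outside the probe rule and went the other way. Its deposited signals were 453.4, 116 and 386.8 in the knockout and 113.5, 111.2 and 110 in the wild type. Hbb-b2 was chosen for mention after its values were seen. Astrocyte and tanycyte genes (23 measured, 0 called, 6 at an unadjusted p under 0.05) had a median of -0.14, with 6 above 0 and 17 below 0. Of 22 endothelial and pericyte genes 1 rose, Rgs5, a G protein regulator of pericytes, from 8.65, 8.94 and 8.73 to 9.89, 9.73 and 9.95 (1.08 ± 0.16, adjusted p = 0.00146). It was also called higher in cortex and hippocampus. Of 8 choroid plexus genes 6 were below 0, with a median of -0.32, 0 called by limma and 2 at an unadjusted p under 0.05. Their mean level was 8.40, 8.17 and 8.38 in the knockout and 8.5, 8.83 and 9.07 in the wild type. Those 2 genes were Igf2, an insulin-like growth factor (-1.38), and Igfbp2, a binding protein of such factors (-1.55), which stand in the meningeal list as well. Igf2 was at 11.92, 11.65 and 11.98 against 12.30, 13.28 and 14.10, and Igfbp2 at 6.75, 6.14 and 6.49 against 7.27, 7.71 and 9.04. The separation and array order of the choroid plexus mean are thus not separate from the meningeal list. None of 15 ependymal, 16 striatal and 25 cortical neuron genes was called by limma, with 2, 0 and 3 of them at an unadjusted p under 0.05. The ependymal gene Cfap69 was near a call (-2.86 ± 0.71, adjusted p = 0.0568). It was at 8.07, 5.61 and 5.78 in the knockout and at 9.47, 9.28 and 9.28 in the wild type. Its other probe was at -2.16, and its changes in cortex and hippocampus were -2.33 and -2.38, with no call. The ependymal list as a whole had 10 genes above 0 and 5 below 0. Of 17 thalamic genes Tnnt1, a troponin gene, rose (0.94 ± 0.19, adjusted p = 0.0161), and lost its call without knockout array 1 or 2 or wild-type array 1 or 2 (adjusted p up to 0.0949). The part of these cell types in other results was not tested.

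Of the neuropeptides of the hypothalamus 3 were called, and all 3 rose. Npvf encodes the RFamide peptides that restrain gonadotropin release and is made by a small cell group of the dorsomedial nucleus. It was at 8.40, 7.77 and 9.29 in the knockout and at 7.07, 6.47 and 7.02 in the wild type, a rise of 1.63 ± 0.25 (adjusted p = 0.00177). The knockout animals differed widely among themselves, yet all 3 lay above all 3 wild-type animals. Nmu, the precursor of the anorexigenic peptide neuromedin U, rose by 0.56 ± 0.12 (adjusted p = 0.0183), from 7.73, 7.70 and 7.24 to 8.0, 8.26 and 8.09. Vip, a peptide of the suprachiasmatic clock, was at 10.35, 10.38 and 10.45 against 9.94, 9.80 and 9.77 and rose by 0.55 ± 0.13 (adjusted p = 0.0358). The call of Vip was lost when any single hypothalamus array was left out (adjusted p 0.0508 to 0.148), and that of Nmu without knockout array 2 or 3 or wild-type array 3 (up to 0.0915). That of Npvf held in each of these fits but not when the 6 hypothalamus arrays were fitted alone (adjusted p = 0.0965). Nmu was not called in that fit either.

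They were among 20 feeding peptides with 2 called higher and 0 lower (median 0.13) and 15 releasing hormones and posterior pituitary peptides with 1 higher and 0 lower (median 0.10). Of the feeding peptides 15 were above 0 and 5 below 0, and of the second list 12 and 3, against 54.3% of all genes above 0. The peptides best known for feeding were not called. Pomc, the melanocortin precursor that suppresses feeding, was at 8.88, 9.51 and 10.06 against 9.38, 8.59 and 9.28 (0.40 ± 0.22, adjusted p = 0.576). Npy, which drives feeding, changed by 0.0013, Hcrt (orexin) by 0.10, Pmch (melanin-concentrating hormone) by 0.04 and Oxt (oxytocin) by 0.11, and none was called. Of these, Npy, Hcrt and Oxt were chosen for mention after their values were seen. None of 33 receptors for such peptides, 18 hypothalamic transcription factors and 41 insulin, mTOR and glucose sensing genes was called by limma at the probe that stood for the gene, the one of highest level. An unadjusted p under 0.05 was found for 0, 2 and 2 of them. Among the receptors a second probe of Calcr, the calcitonin and amylin receptor, was called higher (0.52, adjusted p = 0.0122), while the probe of highest level was near 0, and this was noted after its values were seen. Tsc2, the inhibitor of mTOR signalling, was the nearest to a call, at 11.43, 11.04 and 11.20 against 11.78, 11.81 and 11.85 (-0.58 ± 0.14, adjusted p = 0.0541).

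Genes of neuronal signalling and metabolism were mostly not called. None of 27 glutamate receptor, 37 potassium channel, 24 neurotrophin and CREB, 19 immediate early, 17 glucocorticoid-responsive and 18 glycogen genes passed limma's test, with 1, 5, 3, 2, 0 and 2 at an unadjusted p under 0.05. Their medians lay between -0.10 and 0.07. Of 34 presynaptic genes 2 fell, Clstn1, a kinesin adaptor of axonal transport, and Rab3b, a vesicle GTPase (-0.70 ± 0.14, adjusted p = 0.0161). Of 67 genes of oxidative phosphorylation 1 rose, the complex I subunit Ndufb10 (0.89 ± 0.19, adjusted p = 0.0241), and of 16 GABA system genes only Vip, already named, was called. Of 54 cytosolic ribosomal protein genes 1 rose and 1 fell, and 4 were called at any probe. Rps15a was at 10.69, 10.65 and 10.49 in the knockout and at 12.19, 12.27 and 12.26 in the wild type (-1.63 ± 0.10, adjusted p = 5.57e-08), and Rpl22 rose by 0.35 ± 0.08 (adjusted p = 0.0281). Processed copies of ribosomal protein genes are common, so these probes may read near-identical sequences. Of 19 clock genes 1 fell, Per3, which was at 5.76, 6.17 and 5.29 against 7.26, 7.04 and 7.10 (-1.39 ± 0.20, adjusted p = 0.000798). Leaving out 1 array ended the calls of Ndufb10 (any but knockout 1, adjusted p up to 0.118), Rpl22 (any but wild type 1, up to 0.149) and Rab3b (knockout 2 or 3, wild type 1 or 2, up to 0.0956), and did not end those of Rps15a, Clstn1 and Per3.

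Immune genes outside the microglia and macrophage list gave a few large single changes. Fcer1g couples Fc receptors to intracellular kinases in microglia and other myeloid cells. Its levels were 4.83, 4.99 and 4.98 in the knockout, detected on 0 arrays, and 9.12, 9.25 and 9.39 in the wild type. It fell by 4.32 on the log2 scale, with a standard error of 0.14 and at least 10.5-fold (adjusted p = 1.93e-11). Among 12 genes of Fc receptors and adaptors 1 fell, Fcer1g itself, and 1 rose, Fcgr3, a low-affinity Fc receptor for IgG that signals through that chain. Fcgr3 was at 8.14, 8.34 and 8.32 against 7.29, 6.99 and 7.49 (1.01 ± 0.15, adjusted p = 0.000946). Tyrobp, the adaptor most like Fcer1g in function, differed by -0.22 and was not called (adjusted p = 0.559), and it was chosen after its value was seen.

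H2-Bl was at 8.92, 9.77 and 9.83 in the knockout and at 5.83, 5.95 and 5.69 in the wild type, where 1 array detected it. The rise was 3.69 ± 0.26 (adjusted p = 2.94e-07). It was the only gene called among 17 of class I and antigen processing at the probe that stood for the gene, and the list's median was 0.04. H2-T23, a non-classical class I gene, fell at the dimmer of its probes (-0.96 ± 0.19, adjusted p = 0.0144) and was not called at the brighter (0.14). Class I genes are near-identical in sequence, so signals may be shared among them. Of 24 interferon-response genes Oasl2, an oligoadenylate synthetase-like gene, fell from 9.01, 8.97 and 8.92 to 7.39, 7.77 and 7.81 (-1.31 ± 0.17, adjusted p = 0.000392). Eif2ak2, the kinase PKR, rose by 0.50 ± 0.10 (adjusted p = 0.0131). The list had 21 of 24 genes below 0 and a median of -0.18. H2-T23 (knockout 2 or 3, wild type 2 or 3) and Eif2ak2 (knockout 1 or 2, wild type 2) lost their calls with single arrays left out, at adjusted p-values of up to 0.0839 and 0.0778, while H2-Bl and Oasl2 kept theirs.

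Gramd4, B3galt6 and Clstn1 had large falls and close values within each genotype. Gramd4 was at 5.05, 5.21 and 5.53 in the knockout, with no array detected, and at 9.72, 9.49 and 9.51 in the wild type, at least 13.1-fold lower (-4.31 ± 0.15, adjusted p = 3.57e-11). B3galt6, a galactosyltransferase of the linker that joins glycosaminoglycans to proteins, was at 7.77, 7.69 and 7.37 against 10.47, 10.57 and 10.32 (-2.85 ± 0.16, adjusted p = 1.33e-08). Clstn1 was at 8.65, 8.76 and 8.80 against 10.38, 10.56 and 10.59 (-1.77 ± 0.12, adjusted p = 2.31e-07). The genotypes lay far apart on every array of these 3 genes. Zbtb8os, a cofactor of the tRNA ligase, was detected on 0 knockout arrays and was at least 4.32-fold lower (adjusted p = 2.23e-05). Ccng2, the cell cycle inhibitor cyclin G2, was more variable, at 7.70, 7.91 and 9.0 against 10.49, 10.24 and 10.06 (-2.06 ± 0.44, adjusted p = 0.0217), and lost its call without any 1 array but knockout array 3 (adjusted p up to 0.108).

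Fn3krp was at 9.01, 8.78 and 8.90 in the knockout and at 5.71, 5.85 and 5.56 in the wild type (3.19 ± 0.17, adjusted p = 1.24e-08). Tmem87a, a membrane protein of the Golgi, was at 9.78, 9.79 and 9.78 against 7.56, 7.30 and 6.86 (2.54 ± 0.14, adjusted p = 2.04e-08). Among the knockout animals it was the least variable of the large rises. Bricd5, Padi2, Masp2, Golm2 and Fv1 were detected on all 3 knockout arrays and on 0 wild-type arrays. Bricd5 was at least 4.17-fold, Padi2, a protein-arginine deiminase, at least 3.84-fold, and Masp2, a protease of the lectin pathway of complement, at least 2.93-fold higher. Knockout levels of Bricd5 ran from 7.33 to 8.28 (SD 0.492, n = 3). Golm2, a Golgi membrane protein, was at least 2.92-fold and Fv1, a retroviral restriction factor, at least 2.23-fold higher, and adjusted p-values of these 5 ran up to 1.88e-05. Second probes were called for Golm2 (1.63) and Fv1 (1.38 and 1.19), but not for Masp2 (0.63), and another Golm2 probe was at 0.03. Fpr2, a formyl peptide receptor (2.18 ± 0.20), Ttc34, a tetratricopeptide-repeat protein (1.81 ± 0.13), and E2f2, a cell cycle transcription factor (1.43 ± 0.17), also rose, as did Has1, a hyaluronan synthase (1.39 ± 0.17), and Nubp2, an iron-sulfur cluster assembly factor (1.37 ± 0.20).

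**Figure D3:**
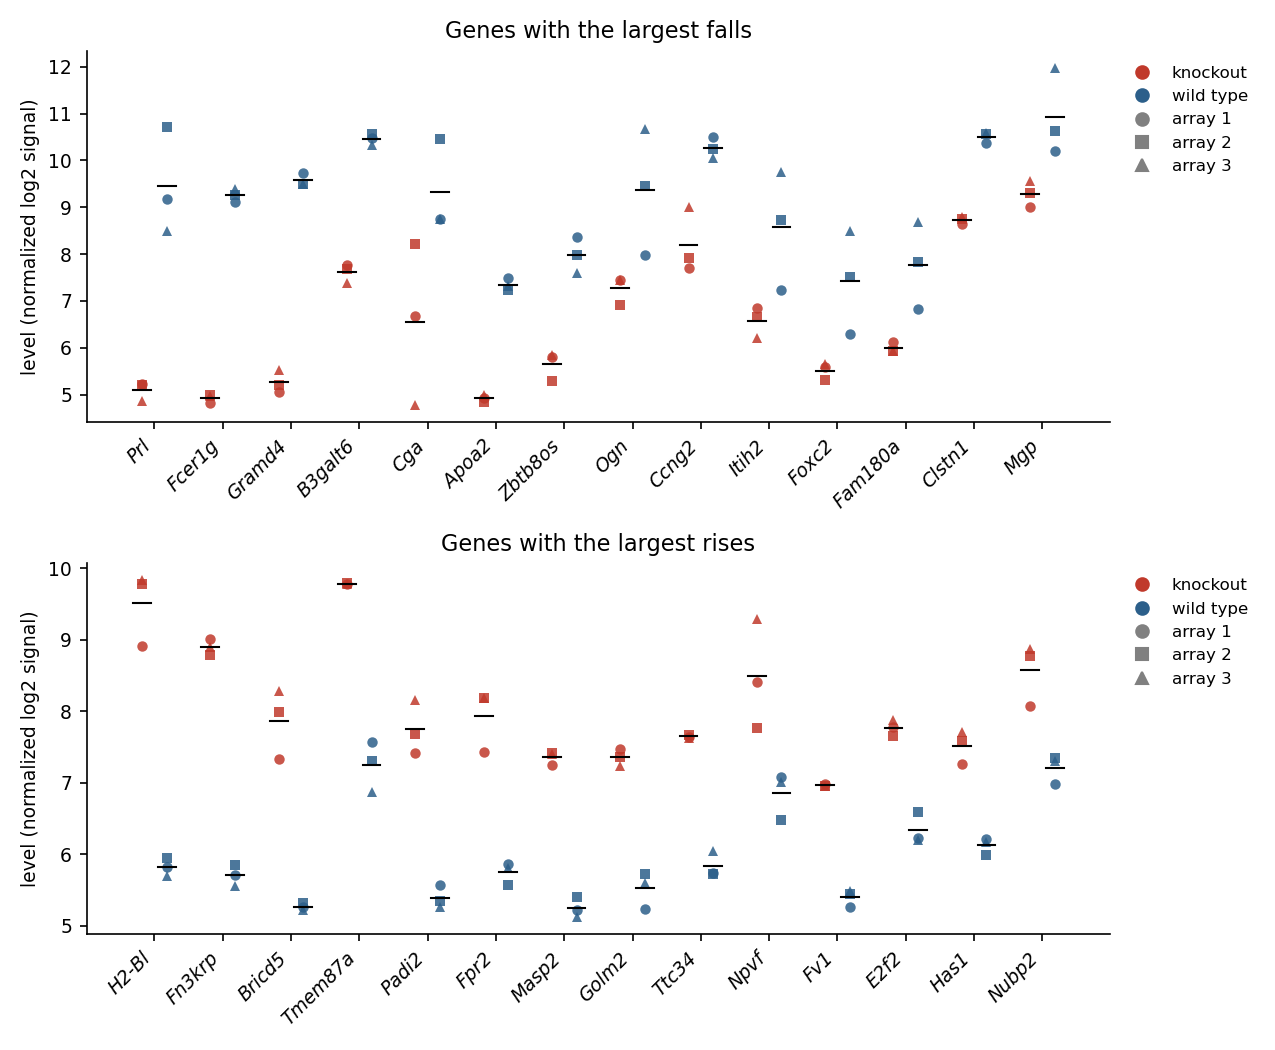
Levels (normalized log2 signal, vertical axis) on each array for the 14 genes with the largest falls (top) and the 14 with the largest rises (bottom). Red symbols are knockout and blue symbols wild-type arrays, symbol shapes give the replicate number, and black bars the mean of 3 arrays. Ogn, Itih2, Foxc2 and Fam180a spread widely in the wild type, while Fcer1g, Gramd4 and B3galt6 are tight in both genotypes.

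The same contrast in cortex and hippocampus, in other animals, was set beside these calls. Of the 244 called probes 125 were also called in cortex, 117 in hippocampus, 100 in both and 102 in neither, against 2.65% and 1.24% of the 14718 probes called in cortex and hippocampus. All 100 probes called in the 3 regions had the same sign in each, and 0 were called with opposite signs. Fcer1g, for example, changed by -4.81 in cortex and -4.61 in hippocampus, Gramd4 by -4.02 and -3.97, Fn3krp by 2.54 and 2.77, and Masp2 by 2.64 and 2.30. The median size of change was 0.986 in those 100 probes and 0.713 in the 102 called in neither other region. Of the 102, 68 were lower and 34 higher, and 60 had the same sign in both other regions. A missing call there thus does not show that a change was absent. In 38 of the 68 falls wild-type array 1 was the lowest of the wild-type hypothalamus arrays.

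**Figure D4:**
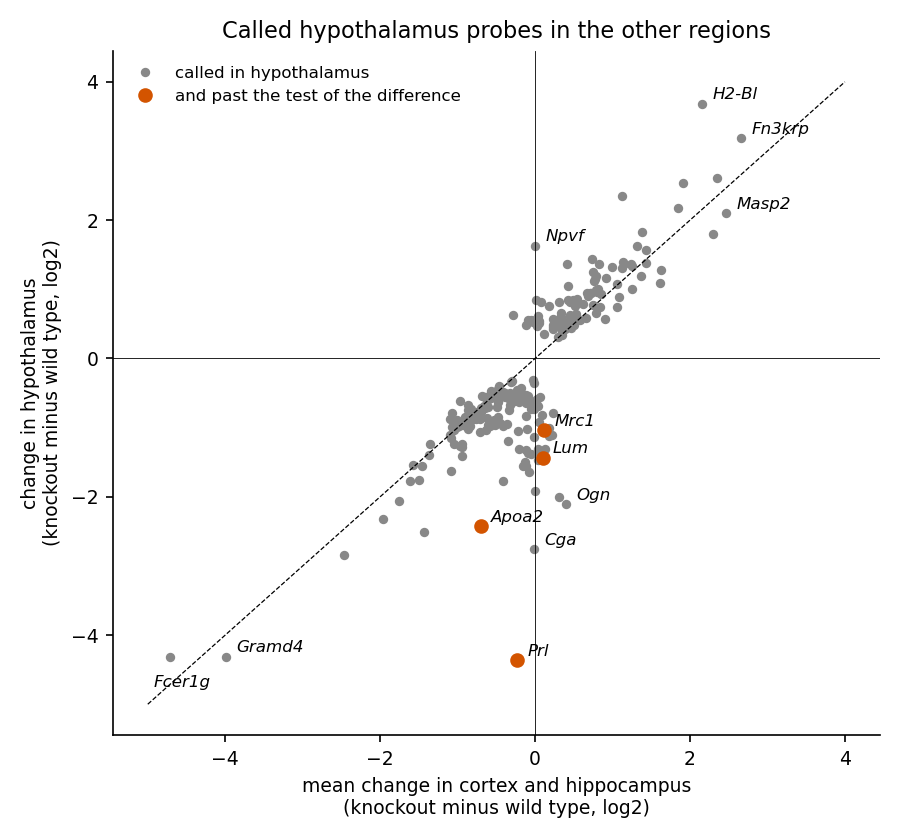
Change in the hypothalamus (log2, vertical axis) against the mean change in cortex and hippocampus (log2, horizontal axis) for the 244 called probes. Orange points also passed the test of the difference between regions, and the dashed line marks equal changes. Fcer1g, Gramd4, Fn3krp and Masp2 lie near the dashed line, while Prl, Cga, Ogn, Lum and Mrc1 lie near 0 in the other regions.

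A direct test of whether the hypothalamic change differed from the mean change in cortex and hippocampus called 6 of 15476 probes (0.0388%), 5 of them among the 14718 (0.034%). Those 5 were Apoa2, Prl, Stbd1, Lum and Mrc1. Apoa2, an apolipoprotein of high-density lipoprotein, was at 4.94, 4.85 and 4.98 in the knockout, detected on 0 arrays, and at 7.49, 7.24 and 7.31 in the wild type, at least 2.79-fold lower (-2.43 ± 0.10). It fell by less in cortex (-0.67) and hippocampus (-0.73), and the difference was -1.73 ± 0.12 (adjusted p = 3.67e-06). Its wild-type level was 1.77 higher in the hypothalamus than in the mean of cortex and hippocampus. A fall in those regions thus had less room above the background. Prl changed by -0.06 in cortex and -0.39 in hippocampus, and the difference was -4.14 (adjusted p = 0.000887). Its wild-type level was 4.28 higher in the hypothalamus than in their mean, so the same limit holds for Prl. Stbd1, a protein that anchors glycogen to membranes, was the reverse case, with 0.09 ± 0.20 in the hypothalamus (adjusted p = 0.941) and called rises of 1.66 and 1.94 in the other regions (difference -1.71, adjusted p = 0.0127). For Lum the difference was -1.53 and for Mrc1 -1.16 (adjusted p = 0.0127 for each). Without knockout array 3 the differences of Stbd1, Lum and Mrc1 were no longer called (adjusted p = 0.0604), nor were those of Lum and Mrc1 without wild-type array 3 (0.0627), while Apoa2 and Prl kept their calls in each such fit.

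The next genes in that test were not called. Taar4, a trace amine receptor, had a difference of -0.71 (adjusted p = 0.0697), Gpr1, a chemerin receptor, one of 0.64 (adjusted p = 0.0796), and Ush1c, the scaffold harmonin, one of 0.61 (adjusted p = 0.0816). Gpr1 was at 7.86, 7.58 and 7.74 in the knockout and at 7.19, 7.19 and 7.14 in the wild type, and Ush1c at 7.65, 7.76 and 7.72 against 7.07, 7.31 and 7.08. Both were called within the hypothalamus (0.55 ± 0.09, adjusted p = 0.00446, and 0.56 ± 0.09, adjusted p = 0.00257). For Npvf (difference 1.64, adjusted p = 0.0932), Cga (-2.75, adjusted p = 0.278) and Ogn (-2.50, adjusted p = 0.135) the difference between regions did not pass the test either.

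Called genes lay unevenly over the chromosomes. Chromosome 4, which carries Tas1r3 near its distal end, had 52 called of 611 genes (8.51%), 24 higher and 28 lower. Chromosome 17 had 19 of 475 (4%), 14 of them higher, chromosome 1 had 14 of 512 (2.73%), chromosome 13 had 8 of 350 (2.29%) and chromosome 2 had 17 of 803 (2.12%), while chromosome 12 had 0 of 342 called by limma. Chromosomes 4, 17, 2 and 1, singled out after the counts were seen as those with the most called genes, held 102 of the 183 called genes (55.7%) and 2401 of the 9997 genes with a known place (24%). Among called probes with a known place, 64 of 90 called in all 3 regions were on these chromosomes and 36 of 97 called in neither other region, against 24.4% of the probes measured. No build was named for the array, and genes were placed by RefSeq (GRCm38.p6) for their chromosome and order only.

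**Figure D5:**
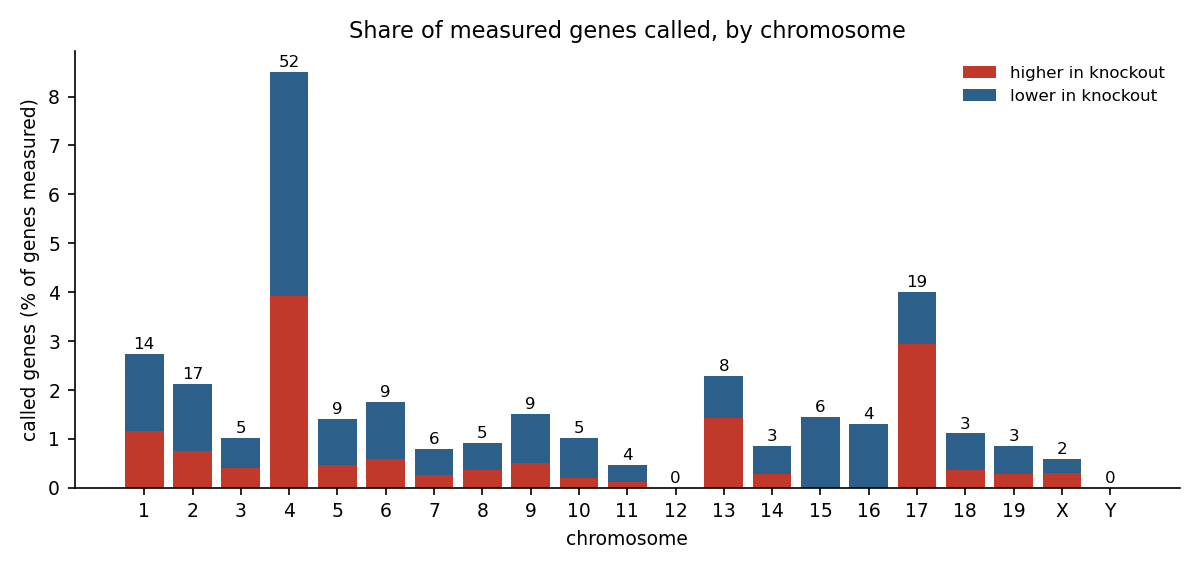
Called genes as a percentage of the genes measured on each chromosome, 1 probe per gene. Red is higher and blue lower in the knockout hypothalamus, and the number over each bar counts called genes. Chromosome 4 stands highest with 52 genes, or 8.51%, followed by chromosome 17 with 19, or 4%.

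The called genes of chromosome 4 formed several clusters. Of 125 genes listed for the distal stretch around Tas1r3, 79 were measured, 5 rose and 9 fell, and the median was -0.01. The risers were Masp2, Ttc34, Gnb1, Nppa and Rpl22. Gnb1 was at 12.15, 12.25 and 12.14 against 11.13, 11.41 and 11.43 (0.86 ± 0.15, adjusted p = 0.00523). B3galt6, Clstn1, Miip, an inhibitor of cell migration (-1.06 ± 0.10), and Per3 were among those that fell. Within 10 measured genes of B3galt6 lay 3 more called genes, Cptp, a ceramide-phosphate transfer protein (-0.85), Ints11, the catalytic subunit of Integrator (-0.51), and 9430015G10Rik (0.49). Around Fv1 the called neighbours were Zfp979 (-1.19), Miip, Nppa, the precursor of atrial natriuretic peptide (0.76), and Fbxo44, an F-box protein (-0.50). Single arrays left out ended the calls of Cptp (knockout 1 or 2, wild type 1 or 3, adjusted p up to 0.107), Ints11 (knockout 1, wild type 2, up to 0.0573), 9430015G10Rik (knockout 3, 0.0549) and Rpl22, as given above.

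Other stretches of chromosome 4 had called neighbours as well. The stretches of 21 measured genes given here and below were picked after the calls were seen, for their counts of called genes. Of all genes measured, 1.83% were called. From Zscan20 to Ptp4a2, 6 of 21 measured genes were called and all 6 fell, among them Zbtb8os, Trim62, a ubiquitin ligase (-1.02), Bsdc1 (-0.96), Zbtb8a (at least 1.35-fold) and Hdac1, a histone deacetylase (-0.69). Near Padi2, which rose, Mfap2 of elastic microfibrils (at least 1.32-fold), Crocc of the ciliary rootlet (-0.88) and Arhgef19, a guanine nucleotide exchange factor (-0.98), fell. The 2 other Mfap2 probes were not called (-0.41 and -0.43). Beside E2f2, Il22ra1, a subunit of the interleukin-22 receptor, fell (-1.23). Slc45a1, a sugar transporter, fell beside Clstn1 (-0.49). The calls of Zbtb8a and Il22ra1 were lost without any 1 of the 6 arrays (adjusted p up to 0.11 and 0.135), that of Slc45a1 without any but wild-type array 1 (up to 0.164) and that of Mfap2 without knockout array 3 or wild-type array 3 (up to 0.0887).

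On chromosome 1 the densest stretch ran from Fcgr3 to Pex19, with 9 of 21 measured genes called, 3 higher and 6 lower. It holds Fcgr3, Apoa2 and Fcer1g, and also B4galt3, a galactosyltransferase (0.39 ± 0.08), and Pfdn2, a prefoldin subunit (0.48 ± 0.08). Uap1, an enzyme of UDP-N-acetylglucosamine synthesis just outside it, was at 9.16, 9.01 and 8.88 against 10.65, 10.40 and 10.61 (-1.54 ± 0.15, adjusted p = 1.12e-05). B4galt3 lost its call without knockout array 1 or 2 or wild-type array 1 or 2 (adjusted p up to 0.0827), and its other probe was not called (0.11). The largest change of the Fc receptor list and the gene of smallest p in the test of the regional difference, Apoa2, thus lay within 10 measured genes of each other.

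Called genes had called neighbours on other chromosomes too. From Fancc to Nsun2 on chromosome 13, 5 of 21 measured genes were called and all 5 rose. From Rab6b to Parp3 on chromosome 9, 4 of 21 were called and all 4 fell. Both stretches, too, were picked for their counts, against 1.83% of all genes called. On chromosome 17 the 5 called genes from Pgp to Nubp2 all rose, Bricd5, Nubp2, Ndufb10, Gfer, a mitochondrial sulfhydryl oxidase (0.44), and Noxo1, an NADPH oxidase organizer (0.98). A second probe of Noxo1 was near 0 and not called (0.05). The 2 other Nubp2 probes were at 0.77 and 0.13, and 1 of them was called. Elsewhere on it Has1 and Fpr2 rose next to Zfp52, which fell (-1.28), and H2-Bl lay within reach of H2-T23. On chromosome 2, Tmem87a and Vps39, a tethering protein of endosomes (0.95), rose while Lrrc57 (-0.99), Haus2, a subunit of the augmin complex (-0.98), and Ccndbp1 (-0.56) fell, and Bloc1s6 fell near Golm2 (-0.31). Hexdc (-0.47), a hexosaminidase, and Cybc1, a chaperone of the phagocyte oxidase (-0.88), fell beside Fn3krp on chromosome 11. A second Hexdc probe was not called (-0.29). Celsr1, a planar polarity cadherin, fell beside Gramd4 on chromosome 15 (-0.69). Anxa3, an annexin, fell near Ccng2 on chromosome 5 (-0.94), and Smco3 near Mgp on chromosome 6 (-1.23). Prl, Cga, Ogn, Lum, Mrc1, Npvf, Itih2, Foxc2, Fam180a, Gpr1 and Ush1c had no other called gene within 10 measured genes. The calls of Zfp52, Bloc1s6 and Hexdc were lost without any 1 of the 6 arrays (adjusted p up to 0.235, 0.144 and 0.171), and those of Gfer (any but knockout 1), Celsr1 (any but knockout 3) and Smco3 (any but knockout 2) without most of them (up to 0.226, 0.125 and 0.19). Noxo1 lost its call without knockout array 2 or 3 or wild-type array 3 (up to 0.0733), and Haus2 without wild-type array 2 (0.0534).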

How the data were processed

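Total RNA of the 6 hypothalamus samples, and of 12 samples of cortex and hippocampus, was hybridised to Illumina mouse bead arrays, 1 array per animal. The authors deposited linear intensity values per probe, not normalized between arrays, each with a detection p-value against negative control beads, per the file headers. Per the submitters' processing notes, signals came from GenomeStudio 2011.1. The background setting is not stated. The deposited z score of each probe matched its log signal after centring and scaling each array, within 5e-10, and served as an alternative. Probes were named through the platform annotation and RefSeq gene IDs: 23978 of 25697 had 1 symbol, 0 several and 1719 none.

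With limma 3.58.1 in R 4.3.3, intensities were background-corrected and quantile-normalized over 18 arrays (neqc, offset 16), and probes detected on at least 3 of the 18 arrays (15476) were fitted with 1 mean for each of 6 groups. The 12 residual degrees of freedom gave 1 spread shared by all groups. Adjusted p-values cover all 15476 probes, with a threshold of 0.05. For lists, the probe of highest level stood for a gene, and lists were given no test of their own. Groups and replicate numbers come from sample titles. The numbers were not taken to pair samples, since no source says that they mark a shared animal or day. Deviations of same-numbered knockout and wild-type arrays correlated at 0.146, 0.0607 and 0.232. Those of different-numbered arrays correlated at -0.232 to 0.134. A shared effect of the number was not tested, and a replicate block was run as an alternative. No source names slides or scan batches, so a batch cannot be told apart from the genotype.

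Members and gene lists were chosen with earlier results of these data known. Genes were named by rule: Tas1r3, the 14 largest rises and falls among called genes with groups that do not overlap, the 8 smallest p-values of the regional difference, up to 5 called members of each list (or 2 of smallest p), the 5 highest region markers, and called genes within 10 measured genes of these. Exceptions are marked. Alternatives covered normalization, offset, filter, array weights, robust variance, the arrays fitted, the replicate block and single arrays left out.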

Additional observations from a re-analysis of the deposited data

Results flagged for a closer look

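Prl differed between regions: its log2 change in the hypothalamus minus the mean change in cortex and hippocampus was -4.14, with an adjusted p of 0.000887 in limma's contrast. Every wild-type hypothalamus array was above every knockout array. Apoa2 had a difference of -1.73, Stbd1 one of -1.71, Lum one of -1.53 and Mrc1 one of -1.16 by the same contrast. Stbd1 was the only one of these 5 with no call in the hypothalamus and called rises in both other regions. Wild-type levels of Prl and Apoa2 were 4.28 and 1.77 higher in the hypothalamus than in the mean of cortex and hippocampus. Falls of these genes in the other regions thus had less room above the background. No cause of these differences was tested.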

How the results depend on the processing

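The direction of the change held for all 83 named called probes under every alternative that could test them, and 34 of the 83 were called under each. With the 6 hypothalamus arrays normalised and fitted alone, 55 of the 83 were called. The count of 244 called probes stayed within 1.5 times under other normalizations, filters and offsets. It was 159 with the 6 hypothalamus arrays normalised and fitted alone, 591 with array weights, 97 with the replicate block on those 6 arrays alone, and 75 with wild-type array 1 as the only wild-type array, which was added after the data were seen. Leaving out single arrays gave 147 to 211, lowest without wild-type array 3 (147), wild-type array 2 (149) and knockout array 3 (163). The replicate block over all 18 arrays gave 299. The count of 5 regional differences was 2 over probes detected on all 6 hypothalamus arrays, 35 with array weights, 2 with wild-type array 1 alone, and 2 to 47 with single arrays left out, highest without wild-type array 1 (47) and knockout array 2 (17), and lowest without knockout array 3 (2) and wild-type array 3 (3). It was 7 with the replicate block over all 18 arrays. Where fewer arrays or probes entered, the alternative itself lowered the number of arrays or probes. Otherwise the cause was not tested. With 1 wild-type array left, that array is assumed to vary like the other groups. Signals near the background limit the size of changes at probes not detected in a genotype.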
